A study of Mus musculus with 6 samples.

Results

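Inflamed and normal liver of lymphocyte-deficient FCR mice were compared across genes, using 3 of the 6 arrays of the series. The samples were taken by their titles: FCR_100% is 1 normal liver, and FCR_off and FCR_2xoff/on are 2 inflamed livers. All 3 FCR livers carried the alleles Fah_del_tm1Mgo, Rag2_del_tm1Fwa and common gamma chain del tm1Wjl on a BL6 background, so that normal and inflamed liver share the same deletions. The other 3 samples, of Fah_del_tm1Mgo mice, were healthy liver (Fah_100%) and tumours (Fah_off and Fah_2xoff/on). NTBC was supplied in the drinking water at 7.5 µg/ml, without interruption for the normal FCR liver. Both inflamed livers came from mice put through 2 rounds of NTBC withdrawal and return. The labels do not settle in which phase each inflamed liver was taken. They give neither age nor sex and do not say whether the samples came from separate animals.

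Fah encodes fumarylacetoacetate hydrolase, which completes the breakdown of tyrosine, and without it reactive intermediates build up in hepatocytes. NTBC blocks the pathway upstream of those intermediates. Rag2 is needed to assemble antigen receptors, and the common gamma chain, encoded by Il2rg, is a shared subunit of several interleukin receptors, so that mice lacking both form no mature T, B or NK cells. Macrophages, neutrophils and other myeloid cells do not depend on these genes. The comparison addresses what liver injury changes in a mouse without lymphocytes.

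Each array held 43379 spots for genes, of which 64.4% in FCR_100%, 68.1% in FCR_off and 69.8% in FCR_2xoff/on lay well above background. No spot was saturated. Values are log2 of the processed signal minus the 75th percentile of the same array, so that 0 is the level of a bright probe and 1 unit is a doubling. They compare 1 gene across arrays and do not rank genes against each other. Il2rg was not well above background on any FCR array (-6.70 in FCR_100%, -7.60 in FCR_off and -7.74 in FCR_2xoff/on), and it lay between -3.40 and -1.94 in the Fah samples. The Fah probe was well above background on all 6 arrays (-1.06, -2.85 and -0.97 on the FCR arrays) and that of Rag2 on none. Whether these 2 probes lie inside the deleted parts is unknown. Ddx3y and Eif2s3y, genes of the Y chromosome, were well above background on all 6 arrays. On the FCR arrays, in the same order, they measured 1.90, 2.13 and 1.51 and 2.67, 3.04 and 2.00. By these genes all 6 samples read as male, although the labels give no sex. Albumin, the main plasma protein made by hepatocytes, stood at 10.20, 9.97 and 9.10 on the 3 FCR arrays in the same order. FCR_100% and FCR_off shared slide 1, and FCR_2xoff/on lay on slide 2.

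Of 15382 genes tested, 239 were higher and 31 were lower in inflamed liver at an adjusted p under 0.05, or 1.55% and 0.202% of the genes (1.76% in all). The test was limma over all 6 arrays with Benjamini-Hochberg adjustment. With 1 normal array, the spread came from the inflamed pair and the tumour pair, and the p-values measure only that spread. All 270 called genes had both inflamed livers on the same side of the normal one. The test itself brings this about, because inflamed livers on opposite sides widen the spread it uses. It is therefore no separate support. Of all genes tested, 67.2% had both on the same side (35.5% above and 31.8% below). Counts of list members below are to be read beside these shares of all genes. The median difference over all genes was 0.04. With values floored at 1 level common to all arrays, no gene passed by limma (1119 higher and 712 lower at an unadjusted p under 0.05). Without FCR_off 487 genes passed, without FCR_2xoff/on 1807, without Fah_off 513 and without Fah_2xoff/on 458.

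The largest rises were in genes that normal FCR liver barely showed. Slc7a11, the cystine carrier of the glutathione pathway, measured -6.14 in FCR_100%, 4.34 in FCR_off and 2.51 in FCR_2xoff/on. Its signal was at least 488-fold higher in inflamed liver (adjusted p = 0.00461, limma). Where the normal array was not well above background, as for 82 of the called genes, such a bound sets the inflamed mean against the dimmest signal that counted as well above background on that array, or the probe's own value if higher.

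Krt20, Krt76, Cldn4, Ly6d and Igf2 were 5 of the 12 largest rises. Krt20, a keratin of gut and urothelial surfaces, measured -7.59, 3.31 and 2.35 in the order FCR_100%, FCR_off, FCR_2xoff/on, at least 323-fold higher (adjusted p = 0.00262). Krt76, a keratin of the oral lining, measured -7.80, 0.22 and 0.09, at least 50.5-fold higher (adjusted p = 0.006). Krt76 and Lypd6b are among 6 called genes, with Adgrf4, Ampd1, Kcnv2 and Wdr64, that were well above background on the 2 inflamed arrays alone, so that they entered the test only through the livers in which they are high. Both keratins were below the background limit in normal liver and clearly measured in each inflamed one. Cldn4, a tight junction protein, measured -7.82, -1.44 and 0.67, at least 34.8-fold higher. Ly6d, a surface protein, was already measured in normal liver at -0.88 and reached 7.19 and 6.20, a difference of 7.57 ± 0.62 (SE, adjusted p = 0.00273). Igf2, the fetal insulin-like growth factor, went from -3.05 to 4.75 and 5.93, a difference of 8.38 ± 0.65 (adjusted p = 0.0027).

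Other genes among the 12 largest rises have no common list. Ggt1, which splits glutathione outside the cell, measured -5.23 in FCR_100% and 2.72 and 2.62 in the inflamed livers, a difference of 7.90 ± 0.65. Syt13, a synaptotagmin, measured -7.52, 4.49 and 2.93 and was at least 595-fold higher by its brighter probe. Its other probe differed by only 0.80. Lypd6b (-7.52, 2.03 and 1.25) and Bmp8b (-6.68, 0.84 and 0.72), a secreted factor of the BMP family, were at least 142-fold and 78.1-fold higher. In each of these genes the 2 inflamed livers were closer to each other than to the normal liver. The rule that picked them favours this, so it is no separate support.

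Sulfotransferases of the Sult2a family, which add sulfate to steroids and bile acids, moved in both directions. Sult2a6 measured -5.49 in FCR_100%, 5.0 in FCR_off and 2.89 in FCR_2xoff/on, at least 693-fold higher. Sult2a3 measured -7.78, 1.67 and -1.36, at least 50.6-fold higher. Sult2a8 went the other way, from 6.67 to 2.63 and 1.54, and fell by 4.59 ± 0.70 (adjusted p = 0.019). Of the 6 members tested, chosen as a family after their values were seen, 4 rose and 1 fell. These genes are close relatives, and how far their probes share signal was not tested.

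**Figure D1:**
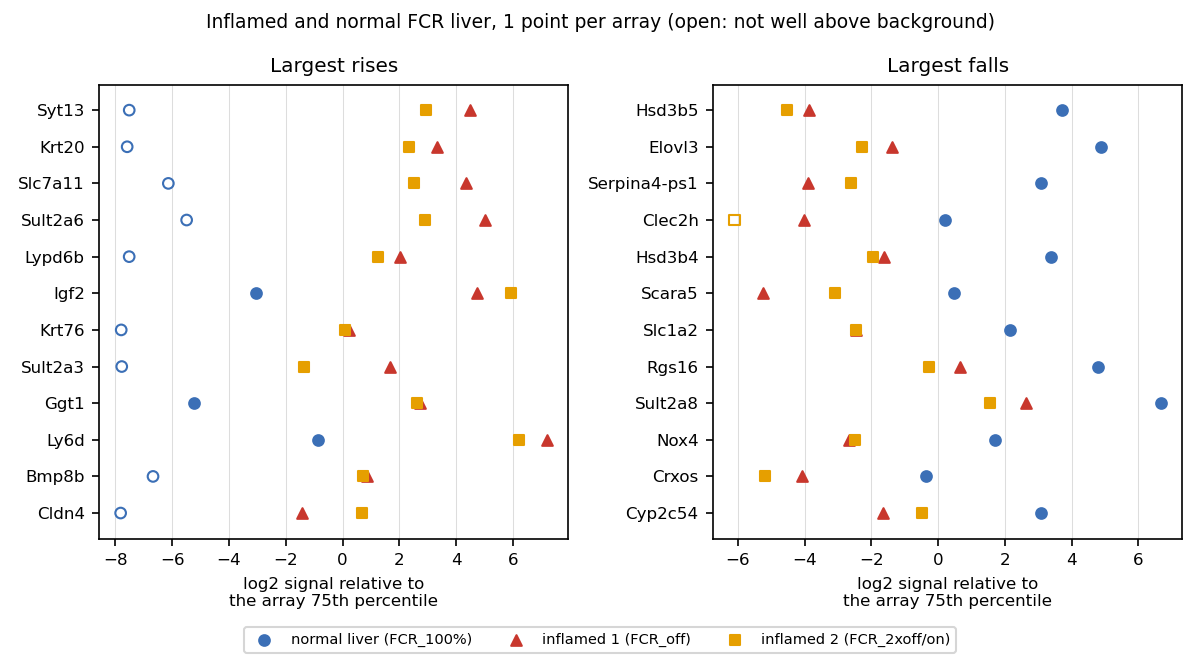
Level of the 12 genes with the largest rises and the 12 with the largest falls that passed the test, 1 point per array; the x axis is log2 signal relative to the 75th percentile of the array, and open points were not well above background. By the rule that picked these genes, both inflamed livers lie on the same side of the normal liver. An example is Krt20, at -7.59 in FCR_100% and at 3.31 and 2.35 in the inflamed livers.

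The largest named falls were in Hsd3b5 and Elovl3, genes of steroid and lipid metabolism that adult liver makes in a sex-dependent way. Most of the other large falls were in genes of other kinds. Hsd3b5, a male-biased steroid reductase of mouse liver, measured 3.73 in FCR_100%, -3.88 in FCR_off and -4.53 in FCR_2xoff/on, and fell by 7.93 ± 0.69 (adjusted p = 0.00299). Elovl3, which lengthens very long fatty acids, measured 4.88, -1.37 and -2.27, and fell by 6.70 ± 0.94 (adjusted p = 0.0137). The inflamed livers lay within 1 unit of each other in both genes, and a close pair is favoured by the rule that picked them.

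Further falls touched transport, signalling and drug metabolism. Slc1a2, a glutamate transporter of the hepatocytes around the central vein, measured 2.16, -2.47 and -2.45, and fell by 4.62 ± 0.61 (adjusted p = 0.00997). Rgs16, a brake on G protein signalling, measured 4.78, 0.65 and -0.28. Nox4, an NADPH oxidase, measured 1.71, -2.66 and -2.49, and Cyp2c54, a cytochrome P450, measured 3.09, -1.66 and -0.49. These last 3 passed with adjusted p of 0.0141, 0.0202 and 0.042. Scara5, a ferritin receptor, measured 0.49, -5.23 and -3.08. Serpina4-ps1 (3.1, -3.89 and -2.61), Clec2h (0.20, -4.01 and -6.10) and Crxos (-0.36, -4.09 and -5.17) complete the falls. Hsd3b4 measured 3.39, -1.63 and -1.96 by its brighter probe, while its other probe was 0.90 higher in inflamed liver. Of 7 Hsd3b genes tested, a family chosen after its values were seen, 3 fell and the differences ran from -7.93 to -1.42.

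Among the 45 lists, chosen with earlier results of these data known, the list of sex-biased liver genes had the lowest median. Its members are genes typical of male liver, so it does not speak for female-biased genes. The Sult2a sulfotransferases above, which moved in both directions, are not among them. Of 18 members tested (22 in the list), all 18 were below normal in both inflamed livers, and 3 passed, namely Hsd3b5, Elovl3 and Mup5. Among all genes tested, 31.8% were below in both and 0.202% fell. Mup5, a major urinary protein, measured 8.58, 4.96 and 6.0 and fell by 3.1 ± 0.63 (adjusted p = 0.0485). The median member differed by -2.77, against 0.04 for all genes. Left with 1 inflamed liver, the test passed 9 members without FCR_off and 13 without FCR_2xoff/on. It passed 9 without either of the tumour arrays in turn, 12 with normexp and 1 with quantile normalization. Cyp7b1, an oxysterol hydroxylase, measured 7.63, 4.38 and 3.41 and did not pass (adjusted p = 0.0505).

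Cytochrome P450 enzymes, which oxidise drugs, steroids and fatty acids, lay mostly below normal. Of 35 tested members 4 fell, none rose, and 29 were below normal in both inflamed livers. Over all genes tested, 0.202% fell and 31.8% were below in both. Cyp2c37 went from 5.77 to 1.79 and 2.41, a difference of -3.68 ± 0.58 (adjusted p = 0.0207). Cyp2c23 measured 5.88, 1.92 and 2.99, and Cyp2e1, the pericentral enzyme that oxidises ethanol, measured 7.98, 4.90 and 5.46 (adjusted p = 0.0357 and 0.0468). Members of the Cyp4a group, which hydroxylate fatty acids, lay on both sides: Cyp4a10 measured 4.42, 7.20 and 5.62, and Cyp4a12a 7.45, 5.74 and 4.8, and neither passed. The list's median difference was -1.48. Without FCR_off 8 members were lower; without FCR_2xoff/on 15 were lower and 2 higher, and without either tumour array 7 were lower. With quantile normalization, without a filter or without a trend 1 was lower, with the authors' values none and with normexp 9.

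Complement and coagulation factors, secreted by hepatocytes, lay below normal without a call. None of 33 passed by limma (21 lower at an unadjusted p under 0.05), and 32 were below normal in both inflamed livers, with a median difference of -1.41. Among all genes tested, 31.8% were below in both. C8a, part of the pore-forming complex, measured 5.84, 1.22 and 2.39 (adjusted p = 0.0748), and C6 measured 3.76, -0.73 and 0.75 (adjusted p = 0.0569). F7, the starter of the extrinsic clotting pathway, measured 3.96, 0.18 and 1.54. The exception was Mbl2, a mannose-binding lectin, at 7.67, 7.98 and 8.11. Without FCR_2xoff/on 18 members fell, without FCR_off 1, without Fah_off 7 and without Fah_2xoff/on 5.

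Bile acid genes (25 tested, median -1.54) held no member that passed by limma (12 lower and 4 higher unadjusted). In both inflamed livers 18 were below and 4 above normal, beside 31.8% and 35.5% of all genes tested. Cyp8b1, which sets the share of cholic acid, measured 3.44, -0.59 and 1.60, and the uptake carrier Slc10a1 measured 4.71, 1.62 and 3.22. Exporters of the basolateral side lay the other way: Abcc4 measured 1.43, 5.36 and 3.87 (adjusted p = 0.0655) and Slc51b -3.66, -0.54 and -0.47 (adjusted p = 0.0584). Cyp7a1, the rate-limiting enzyme of bile acid synthesis, measured 2.38, 0.15 and 3.00, on both sides of normal. Without FCR_2xoff/on 13 members fell and 2 rose.

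Urea and amino acid enzymes (31 tested, median -1.32), tyrosine enzymes (12, median -0.86), gluconeogenesis (14, median -0.84), secreted hepatocyte proteins (21, median -0.74) and hepatocyte transcription factors (22, median -1.19) held no member called by limma. At an unadjusted p under 0.05 they had 15, 2, 6, 3 and 4 lower members, and gluconeogenesis had 1 higher. The tyrosine median was -0.57 without FCR_off. Counted with the complement, P450, sex-biased and bile acid lists, 170 of 204 genes were below normal in both inflamed livers and 11 were above in both. Of all genes tested, 31.8% were below in both. Among the transcription factors, Cebpa measured 5.10, 1.71 and 3.27 and Hnf4a 4.05, 2.71 and 3.31. In a whole-liver sample, fewer hepatocytes and less RNA per hepatocyte cannot be told apart.

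**Figure D2:**
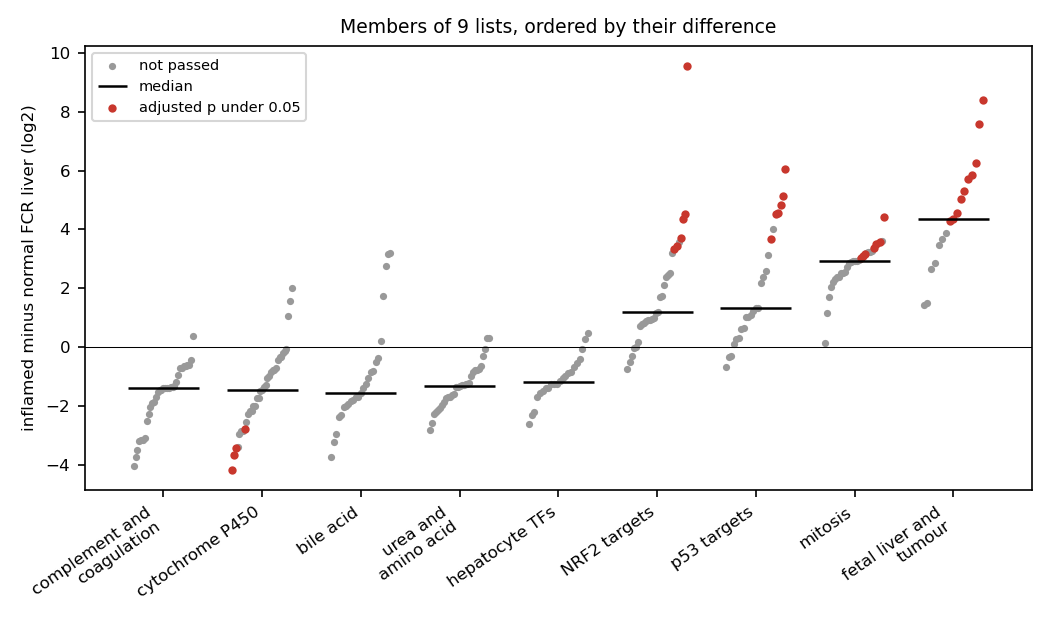
Difference between inflamed and normal FCR liver (log2) for every tested member of 9 lists, ordered within each list, with the list's median as a bar and called members in red. Hepatocyte lists lie mostly below 0 with few called members, whereas the fetal list has 10 of 17 called and a median of 4.36.

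NRF2 targets, the enzymes that detoxify electrophiles and rebuild glutathione, were called upward only. Of 30 members tested 6 rose and none fell, and 23 were above normal in both inflamed livers, with a median difference of 1.19. Among all genes tested, 1.55% rose and 35.5% were above normal in both. G6pdx, which feeds NADPH to this system, went from 0.42 to 4.79 and 5.13, a difference of 4.54 ± 0.58 (adjusted p = 0.00914). Srxn1, which repairs oxidised peroxiredoxins, measured 3.27, 7.18 and 6.76 (adjusted p = 0.0163). Hmox1, the heme-degrading oxygenase, measured 2.78, 6.62 and 5.80 (adjusted p = 0.032). The glutathione transferase Gstm2 (4.18, 7.62 and 7.39) and the carbonyl reductase Cbr3 (2.98, 8.23 and 6.43) also passed, as did Slc7a11. Nqo1, a quinone reductase often used as the marker of the group, measured 0.49, 4.68 and 3.42 and did not pass (adjusted p = 0.0827). With FCR_2xoff/on left out 13 members rose. With normexp 12 rose, and 3 with array-median scaling, the authors' values or no trend.

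The antioxidant response element, the site read by NRF2, was searched as TGACNNNGC on both strands, from 250 bases before to 50 after each start in RefSeq promoters of GRCm38.p6. Of the 30 members 26 had a promoter in the table, and 10 of them (38.5%) held the letters, against 14.0% of all 27025 genes. Among the 5 called members with a promoter there, 2 held the letters. G6pdx is shown because it is a called member with a match before its start; the match, read from the opposite strand, is in capitals within the 200 bases before the start (GRCm38.p6, chrX:74428881-74429080, minus strand).
G6pdx: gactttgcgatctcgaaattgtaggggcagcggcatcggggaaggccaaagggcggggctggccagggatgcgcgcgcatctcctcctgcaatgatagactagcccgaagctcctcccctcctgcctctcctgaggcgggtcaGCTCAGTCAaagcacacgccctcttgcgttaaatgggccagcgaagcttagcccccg

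Targets of p53, the DNA damage responder, included 6 of 25 that rose and none that fell (median 1.33), while 1.55% of all genes tested rose. Cdkn1a, the p21 inhibitor of the cell cycle, measured -1.33, 2.56 and 3.90, a difference of 4.56 ± 0.84 (adjusted p = 0.0357). Phlda3, which restrains AKT, measured -0.42, 5.06 and 3.72 (adjusted p = 0.0141), and Eda2r, of the TNF receptor family, -4.48, 0.68 and -0.59 (adjusted p = 0.0249). Psrc1 (-4.10, 2.19 and 1.72), Ddit4l (-3.19, 1.98 and 1.91) and Gtse1 (-4.08, 0.05 and -0.84) were the other called members. Psrc1 and Gtse1 are also spindle-associated. Mdm2, the ligase that degrades p53, measured 1.64, 3.25 and 2.17, and Gdf15, a stress hormone, 3.40, 3.58 and 3.85, and neither passed. Without FCR_2xoff/on 11 members rose, with quantile normalization or no filter 3 and with the authors' values 2.

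Of 23 amino acid and ER stress genes 3 rose, against 1.55% of all genes tested. Their median difference was 0.24 and turned sign under 1 alternative. Psat1 and Phgdh, enzymes of serine synthesis, measured -1.53, 3.30 and 2.80 and -2.30, 1.64 and 1.46 (adjusted p = 0.0104 and 0.0208). Vldlr, a lipoprotein receptor, was the third, at -1.56, 1.85 and 2.19 (adjusted p = 0.0485). Hspa5, the main chaperone of the ER, measured 5.74, 6.45 and 6.34 and did not pass, nor did Ddit3 at -0.89, 1.44 and 0.85. Without FCR_2xoff/on 5 members rose and 2 fell.

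Mitotic genes lay above normal almost without exception. Of 31 tested members 7 rose, none fell, and 30 were above normal in both inflamed livers, with a median difference of 2.91. Over all genes tested, 1.55% rose and 35.5% were above normal in both. Cdc20, an activator of the anaphase-promoting complex, measured -0.64, 2.62 and 3.22, a difference of 3.56 ± 0.59 (adjusted p = 0.0249). Mki67, the proliferation antigen, measured -1.08, 1.77 and 2.38 (adjusted p = 0.0421). Ccnb1, the mitotic cyclin, measured -5.60, -1.60 and -0.74, at least 20.2-fold higher. Ect2 (-2.43, 1.42 and 0.75), Nusap1 (-3.80, -0.75 and -0.12), Cenpe (-2.0, 1.24 and 0.95) and Aurka (-0.66, 2.71 and 2.02), which act on the spindle and in cytokinesis, passed as well. Without FCR_off 20 members rose, without FCR_2xoff/on 18 and without Fah_off 11. With normexp 11 rose. With array-median scaling 1 member passed, without a filter or without a trend 2, and with the authors' values or quantile normalization none.

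Promoters of mitotic genes often hold the CHR, written TTTGAA, and CCAAT boxes, and both were searched on both strands in the same windows. Of 28 members in the table, 22 (78.6%) held TTTGAA, against 20.2% of all genes. CCAAT was also found in 22 members (78.6%), against 41.1% of all genes. Of the 7 called members 4 held TTTGAA and 6 held CCAAT. Cdc20, Ect2 and Mki67 are shown because they were called and held both before the start; capitals mark both motifs in the 200 bases before it, given on the gene's own strand. The stretches are chr4:118437344-118437543, chr3:27153879-27154078 and chr7:135716380-135716579 of GRCm38.p6, all minus strand.
Cdc20: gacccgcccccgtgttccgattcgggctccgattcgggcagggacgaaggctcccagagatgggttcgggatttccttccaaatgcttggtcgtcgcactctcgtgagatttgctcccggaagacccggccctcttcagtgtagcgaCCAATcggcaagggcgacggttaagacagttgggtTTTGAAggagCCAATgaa
Ect2: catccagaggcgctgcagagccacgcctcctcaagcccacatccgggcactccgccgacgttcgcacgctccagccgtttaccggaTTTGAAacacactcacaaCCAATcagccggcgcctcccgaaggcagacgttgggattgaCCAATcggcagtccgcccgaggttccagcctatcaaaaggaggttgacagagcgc
Mki67: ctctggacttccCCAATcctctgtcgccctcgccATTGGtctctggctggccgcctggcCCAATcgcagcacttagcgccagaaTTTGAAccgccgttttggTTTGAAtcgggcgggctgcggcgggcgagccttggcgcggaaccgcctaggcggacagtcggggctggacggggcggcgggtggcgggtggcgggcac

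DNA replication genes held calls in both directions. Of 29 tested, 1 rose and 1 fell, beside 1.55% and 0.202% of all genes tested, and the median difference was 1.14. Cdc6, which loads the replicative helicase, measured -7.06, -3.32 and -3.00, at least 5.10-fold higher (adjusted p = 0.0451). Mcm10, a replication initiation factor, fell, from 5.39 to 1.90 and 2.20 (adjusted p = 0.0249). Whether the replication and mitotic lists differ was not tested. Without FCR_2xoff/on 6 replication genes rose and without FCR_off 3.

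Genes of fetal liver and liver tumours held the highest share of calls. Of 17 tested members (20 in the list) 10 rose, none fell and 15 were above normal in both inflamed livers, with a median difference of 4.36, or 4.27 with bounded genes at their bound. For all genes tested the shares that rose and that were above in both were 1.55% and 35.5%. Afp, the fetal counterpart of albumin, measured 2.46, 9.24 and 8.23, a difference of 6.27 ± 0.62 (adjusted p = 0.00422). Gpc3, a heparan sulfate proteoglycan, measured -3.44, 2.60 and 2.20 (adjusted p = 0.00461), and Spink1, a trypsin inhibitor, -1.41, 4.04 and 4.55 (adjusted p = 0.00711). Tff3, a trefoil peptide of mucous cells, measured -2.26, 1.94 and 2.65. Scd2, the desaturase of fetal liver, measured -0.27, 3.28 and 4.90, and Cpe, a carboxypeptidase, -4.22, 0.37 and -0.26. Bex1 and the steroid reductase Akr1c18 were at least 26.1-fold and 8.97-fold higher. Igf2 and Ly6d are the other called members. With quantile normalization or the authors' values 5 members rose.

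Biliary and progenitor genes were called in part. Of 25 tested members 6 rose and none fell, with a median difference of 2.13, while 1.55% of all genes tested rose. Cd24a, a progenitor surface protein, measured -3.33, 2.09 and 0.74 (adjusted p = 0.019), and Lgals3, a lectin, -0.50, 4.66 and 3.42 (adjusted p = 0.0217). Prom1, a stem cell surface protein, was at least 21.3-fold higher. S100a11 measured -1.21, 2.76 and 3.25, and Cldn4 and Lcn2 were the other called members. The defining duct markers did not pass: Krt19 measured -2.64, 0.11 and -0.77 (adjusted p = 0.14), Epcam -5.20, -1.15 and -2.59 (adjusted p = 0.125), and Sox9 -1.04, -0.43 and -0.52 (adjusted p = 0.799). Without FCR_2xoff/on 15 members rose, and with the authors' values none.

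Keratin and squamous genes included 5 of 17 tested that rose (median 1.42), while 1.55% of all genes tested rose. Besides Krt20, Krt76 and Ly6d these were Sprr1a, a cornified envelope protein, at -2.67, 3.45 and 3.40 (adjusted p = 0.00461), and Krt5, a basal keratin, at -3.23, 1.59 and 2.07 (adjusted p = 0.00997). Krt76 entered the test only through the 2 inflamed livers in which it is high, so its call adds no support for the list. The hepatocyte keratins did not pass: Krt8 measured 5.93, 7.69 and 7.74, and Krt18 6.76, 8.33 and 8.0. Among genes of Wnt signalling and the pericentral zone, 2 of 18 fell (Slc1a2 and Cyp2e1), against 0.202% of all genes tested. The median difference of this list was -1.01. Axin2, a feedback target of Wnt signalling, measured -1.40, -0.74 and -2.63, and Glul, glutamine synthetase, 6.45, 5.98 and 4.22, and neither passed. Without FCR_2xoff/on 6 members of the Wnt list fell.

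Neutrophil genes lay mostly above normal. Of 20 tested members 6 rose, none fell, and 17 were above normal in both, with a median difference of 3.47, or 2.71 with bounded genes at their bound. For all genes tested these shares were 1.55% that rose and 35.5% above normal in both. S100a8 and S100a9, the calprotectin subunits, measured -3.15, 1.56 and 2.85 and -0.21, 4.07 and 4.8 (adjusted p = 0.0337 and 0.0168). Retnlg, a resistin-like protein of granulocytes, measured -5.09, 0.46 and 0.72 (adjusted p = 0.0114). Mmp8, neutrophil collagenase, and Il1r2, the decoy interleukin-1 receptor, were at least 16.8-fold and 22.6-fold higher. Lcn2, an iron-binding protein of granules that injured epithelium also makes, measured -1.18, 2.38 and 4.37 (adjusted p = 0.0377). Granule genes of immature cells were further from normal in FCR_2xoff/on: Ngp measured -7.67, -5.02 and -1.15 and Camp -6.41, -3.74 and -1.04, without passing. The linear signals of the list summed to 3.72, 37.8 and 65.5 times the 75th percentile in FCR_100%, FCR_off and FCR_2xoff/on. This sum follows the brightest probes, and S100a9, Lcn2 and S100a8 gave 85.1% of it in FCR_2xoff/on. Left with 1 inflamed liver, either one, 11 members rose, without Fah_off 10 and without Fah_2xoff/on 9. With quantile normalization 2 rose, without a filter on dim probes 3 and with the authors' values none, and the median with normexp was 1.53.

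Macrophage genes lay further from normal in FCR_off than in FCR_2xoff/on. Of 27 tested members 2 rose, against 1.55% of all genes tested. The median difference was 2.30 in FCR_off and 1.16 in FCR_2xoff/on. Cd14, the lipopolysaccharide co-receptor, measured -1.50, 2.80 and 3.08, a difference of 4.43 ± 0.58 (adjusted p = 0.00997). Gpnmb, a protein of lipid-laden macrophages, measured -6.02, 1.07 and -0.88, at least 48.6-fold higher by the brighter of its probes, while the lowest probe differed by 0.09. Trem2, a lipid receptor, measured -2.17, 3.41 and -0.10 and did not pass (adjusted p = 0.171). The summed signal of the list was 72.9, 649 and 139 times the 75th percentile in FCR_100%, FCR_off and FCR_2xoff/on. This sum follows the brightest probes, and Marco and Cd5l gave 55.6% of it in FCR_off. With normexp 6 members rose and with quantile normalization or the authors' values 1. Without FCR_2xoff/on 17 members rose; without FCR_off 4 rose and 1 fell, and without either tumour array 6 rose.

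Several markers of the resident Kupffer cells lay above normal in FCR_off and below it in FCR_2xoff/on. Timd4, a phosphatidylserine receptor, measured -1.52, -1.11 and -5.88, and was not well above background in FCR_2xoff/on. Cd163, the haptoglobin-hemoglobin receptor, measured 0.42, 2.51 and -1.91, and Vsig4, a complement receptor, 0.18, 1.62 and -1.31. Clec4f (2.61, 3.34 and 1.37) and Mrc1 (2.01, 2.70 and 0.60) were ordered alike. Marco, a scavenger receptor, measured 3.23, 7.62 and 3.38, and Cd5l, a lipid-binding protein of macrophages, 4.27, 7.37 and 4.49, so that only FCR_off was far from normal. With 1 liver per regimen these differences have no replicate check, and regimen and slide cannot be told apart.

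Lymphocyte genes held 1 call. Over the T, B and NK lists 42 genes were tested, of which 1 rose and none fell, while 1.55% of all genes tested rose. Their median difference was 0.17, and 10 were not well above background on any FCR array. Among members not well above background on all 3 FCR arrays were Cd3g and Cd8a of T cells, Ms4a1 of B cells, and Ncr1 and Prf1 of NK cells. No T cell gene (15 tested, 2 higher unadjusted) or B cell gene (14 tested, none unadjusted) was called by limma. The called gene of the NK list was Eomes, a transcription factor of NK cells and CD8 T cells, at -7.59, -0.97 and -0.32, at least 29.1-fold higher (adjusted p = 0.0142). Cd247, a signalling chain of the T cell receptor, measured -7.60, -4.04 and -3.60 and did not pass (adjusted p = 0.0732), and its lowest probe differed by -0.18. No mast cell, dendritic or endothelial gene was called by limma (2, 3 and 1 higher unadjusted), and their medians were 0.82, 0.49 and -0.14, each of the other sign under 1 alternative. Antigen presentation genes were not called by limma either: MHC class II genes (10 tested, 6 higher unadjusted) had a median of 1.55 and MHC class I genes (15 tested, none unadjusted) of -0.17. Erythroid genes (8 tested, median 1.36, 4 higher and 1 lower unadjusted) and genes of the common gamma chain receptors, their cytokines and recombination (9 tested, median 1.27, 1 each way unadjusted) held no call by limma. Without FCR_2xoff/on the erythroid median was 0.066, and without FCR_off the gamma chain median was 0.45. In the pancreas list the protease Cela1 alone was called, at -2.62, 0.54 and 1.93 (adjusted p = 0.0409).

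**Figure D3:**
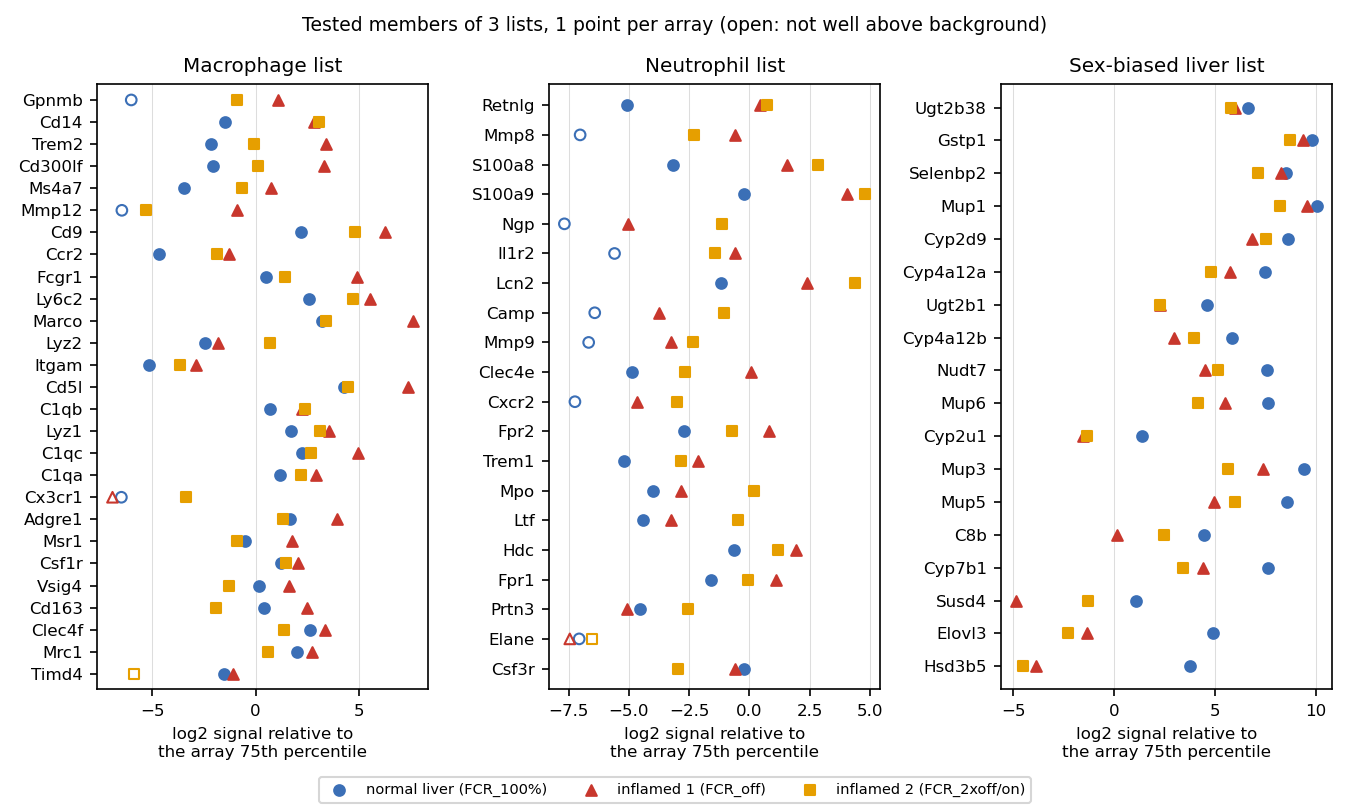
Level of each tested member of the macrophage, neutrophil and sex-biased liver lists, 1 point per array; the x axis is log2 signal relative to the 75th percentile of the array, and open points were not well above background. All 18 tested genes of the sex-biased list, which holds genes typical of male liver, lie below normal in both inflamed livers. Cd163 and Vsig4 lie on opposite sides of normal in FCR_off and FCR_2xoff/on.

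Chemokine and cytokine lists held few calls. Above normal in both inflamed livers were 9 of 13 genes of the Cxcl group, 14 of 18 of the Ccl group and 16 of 21 cytokine and mediator genes. That held for 35.5% of all genes tested, of which 1.55% rose. Of the Cxcl group 2 rose. Cxcl2, which draws neutrophils, measured -7.02, -1.87 and -1.78 (at least 12.8-fold higher, adjusted p = 0.0196), and Cxcl14 measured -2.33, 1.07 and 1.14 (adjusted p = 0.0304). In the Ccl group Ccl12, which draws monocytes, alone rose, at least 17.1-fold higher (adjusted p = 0.0493). Its relative Ccl2 measured -1.25, 3.36 and 1.51 (adjusted p = 0.06). Ptgs2, the inducible cyclooxygenase, was the called member of the cytokine list, at -7.59, -1.88 and -0.06 (at least 23.2-fold higher, adjusted p = 0.0483). Il6 measured -3.92, -0.47 and -0.71, Il1b -2.51, 0.68 and -0.44, and Tnf -5.11, -2.95 and -3.28, and none of them passed. The medians of the 3 lists were 1.80, 2.06 and 1.48, and with the authors' values none of the 3 held a call by limma. Without FCR_2xoff/on the lists had 5, 8 and 8 members that rose. Without Fah_off they had 3, 5 and 3, and 5 Ccl genes rose without Fah_2xoff/on.

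The acute phase list holds plasma proteins that hepatocytes secrete under interleukin-6. Of 24 members 1 was called, Lcn2, beside 1.76% of all genes tested. The median difference was -0.76, which was -1.01 in FCR_off and -0.18 in FCR_2xoff/on. Saa1, serum amyloid A, measured 6.75 in FCR_100%, 4.70 in FCR_off and 7.30 in FCR_2xoff/on. Orm2, an orosomucoid, measured 4.75, 3.95 and 6.18. Both lay below normal in FCR_off and above it in FCR_2xoff/on. Crp, C-reactive protein, measured 2.58, -1.56 and -0.06 (adjusted p = 0.0817), and Hamp, the iron hormone hepcidin, 7.55, 6.64 and 6.14. Without FCR_2xoff/on 7 members fell and 1 rose.

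Interferon-response genes (21 tested) held no call by limma (6 higher unadjusted). Above normal in both inflamed livers were 16, as were 35.5% of all genes tested, and the median difference was 1.07. Isg15, a ubiquitin-like modifier, measured 2.78, 4.03 and 5.15, and Ifi27l2a 2.69, 6.02 and 4.71 (adjusted p = 0.0923). The interferon-stimulated response element was searched on both strands as 2 GAAA blocks with any 2 bases between them. Of the 23 members 15 were in the promoter table, and 10 of them (66.7%) held it, against 3.99% of all genes. Isg15 is shown because it carries overlapping matches while its level did not pass; the capitals mark them in the 200 bases before the start (GRCm38.p6, chr4:156200819-156201018, minus strand). Without FCR_2xoff/on 4 members rose.
Isg15: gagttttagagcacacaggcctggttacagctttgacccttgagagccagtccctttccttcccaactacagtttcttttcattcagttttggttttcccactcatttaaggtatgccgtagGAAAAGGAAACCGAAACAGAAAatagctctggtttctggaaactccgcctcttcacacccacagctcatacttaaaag

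Matrix and stellate cell genes (31 tested, median 1.01) held no call by limma (7 higher and 1 lower unadjusted). Col1a1, the main fibrillar collagen, measured -0.31, 2.79 and 0.08, and Lum, a collagen-binding proteoglycan, 0.56, 3.89 and 1.34. Col1a2 measured 0.90, 3.04 and 2.50. Fn1, fibronectin, which hepatocytes also secrete, measured 4.39, 1.19 and 2.84, and Acta2, smooth muscle actin of activated stellate cells, 1.39, 1.03 and 3.55. Without FCR_2xoff/on 11 members rose and 1 fell.

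The lipogenesis list of 24 genes held 2 calls by limma, beside 1.76% of all genes tested, and none with the authors' values. Cidec and Cidea, proteins of the lipid droplet surface, rose from 0.88 to 5.42 and 5.24 and from -2.79 to 1.5 and 0.91 (adjusted p = 0.0211 and 0.0208). Plin2, a coat protein of lipid droplets, measured 7.17, 8.15 and 7.72 and did not pass, nor did the synthesis enzymes of the list. Scd1, the main desaturase of adult liver, measured 6.05, 1.31 and 5.89, Fasn, fatty acid synthase, 6.37, 3.92 and 6.89, and Thrsp, a lipogenic regulator, 5.52, -0.62 and 4.34. The list's median difference was -1.29 in FCR_off and 0.06 in FCR_2xoff/on. Cholesterol genes (24 tested, no call by limma and none unadjusted) were at -1.26 and -0.05. Fdps, an isoprenoid synthase, measured 4.83, 1.98 and 5.0, and Fdft1, squalene synthase, 3.00, 0.58 and 3.80, so that only FCR_off was far from normal. Without FCR_2xoff/on 9 lipogenic and 7 cholesterol genes fell.

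Among 30 genes of fat oxidation and PPAR-alpha, 1 rose and 1 fell, with a median difference of -0.42. Over all genes tested 1.55% rose and 0.202% fell, shares that also apply to the lists that follow here. Pdk4, which blocks pyruvate entry into the citrate cycle, was the gene that rose, at -1.04, 4.16 and 2.65 (adjusted p = 0.0337). In the glycolysis list 2 of 19 genes rose, G6pdx and Pkm. G6pdx is the NADPH-feeding enzyme already counted with the NRF2 targets, and not itself a step of glycolysis. Pkm, the pyruvate kinase of fetal and proliferating tissue, measured -1.29, 1.81 and 2.80 (adjusted p = 0.034). Of 21 amino acid transporters 3 rose and 1 fell. Slc1a4, a carrier of serine and alanine, measured -2.39, 3.41 and 3.67 (adjusted p = 0.00422), Slc1a5, a glutamine carrier, -3.12, 0.28 and 0.15 (adjusted p = 0.0436), and Slc7a11 also rose. Slc1a2 fell. Iron and heme genes (26) had Hmox1 as their called member and growth factors (24) had Igf2. Respiratory chain genes (30) held no call by limma (1 lower unadjusted) and had a median of 0.08. Without FCR_2xoff/on 8 transporters rose and 3 fell, and 5 genes rose and 2 fell in the fat oxidation list.

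Within slide 1, where FCR_off and FCR_100% were measured together, 1656 genes (10.8%) were higher and 801 (5.21%) lower in FCR_off by more than 2 log2 units, which is 4-fold. For FCR_2xoff/on against FCR_100%, across slides, the counts were 1312 (8.53%) and 424 (2.76%). Past this size in both livers were 854 genes upward and 179 downward. Each is 1 array against 1, with no replicate check. Of the 270 called genes, FCR_off was further from normal in 169.

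Among genes well above background on both slide 1 arrays, the largest rise was in Chil3, a chitinase-like protein of activated macrophages, at -1.99 in FCR_100%, 7.04 in FCR_off and 1.38 in FCR_2xoff/on. Its relative Chil4 measured -4.92, 2.82 and -2.53, and Adam8, a protease of myeloid cells, -2.50, 4.36 and 0.99. These 3 did not pass the test over both inflamed livers, in which they differed widely (adjusted p = 0.137, 0.21 and 0.0671). Ggt1, Ly6d, Igf2, Elovl7 and Hkdc1 followed among the 8 largest rises by this rule; genes dim in normal liver, such as Syt13 and Krt20, fall outside it. Elovl7, a fatty acid elongase, measured -3.64, 3.53 and 3.21, and Hkdc1, a hexokinase relative, -4.11, 2.99 and 2.76, so that both inflamed livers were alike.

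Large slide 1 falls by the same rule included Hsd3b5, Serpina4-ps1 and Elovl3, and genes that were closer to normal in FCR_2xoff/on. Car3, carbonic anhydrase of adult hepatocytes, measured 7.47, 1.70 and 6.20, Itih1, a plasma protease inhibitor, 5.08, -0.84 and 2.94, and Thrsp 5.52, -0.62 and 4.34. Abcc6, a hepatocyte exporter, measured 0.81, -5.11 and -2.05, and Susd4, a complement regulator, 1.09, -4.86 and -1.28.

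**Figure D4:**
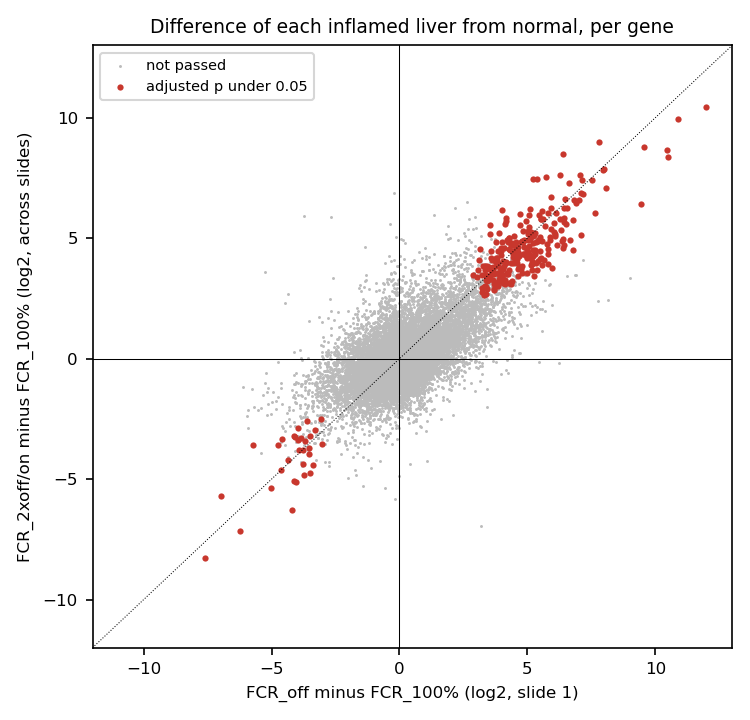
Difference from FCR_100% of FCR_off (x axis, within slide 1) and of FCR_2xoff/on (y axis, across slides) in log2 units, 1 point per tested gene, with the 270 called genes in red and a dotted line where both are equal. The called genes lie in the upper right and lower left, and single points far off the line, such as Slc4a7 and Fthl17e, have the 2 inflamed livers on opposite sides of normal.

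Directly compared, FCR_2xoff/on was more than 2 units above FCR_off in 761 genes (4.95%) and below it in 561 (3.65%). Among genes well above background on both arrays the extremes were Slc4a7, a bicarbonate carrier, at 3.64 in FCR_100%, 6.85 in FCR_off and -3.32 in FCR_2xoff/on, and Fthl17e, a ferritin-like gene, at -2.88, -5.54 and 3.00. The ribosomal RNA gene Rn28s1 measured 2.54, -0.04 and 5.91. The Fah tumours lay on the same slides, and they were split likewise: Slc4a7 measured 4.89 in Fah_off and -3.48 in Fah_2xoff/on, Fthl17e -4.68 and 2.83, and Rn28s1 -0.13 and 5.48. Of the 16 genes so picked for the largest differences between the inflamed livers, 10 also differed by more than 2 units the same way between the tumours. That held for 189 of the 761 genes (24.8%) and 41 of the 561 (7.31%), whereas 2.79% and 0.644% of all genes differed so between the tumours. Chil3 is among the other 6, at 0.87 and 1.78 in the tumours. Regimen and slide cannot be told apart in either pair.

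Besides Slc4a7, Cd163 and Vsig4, the genes furthest above normal in FCR_off and below it in FCR_2xoff/on, among those well above background on all 3 arrays, were Arrdc4 (-0.13, 1.57 and -1.74), Tasor2 (-0.02, 1.68 and -1.73) and Gbp2b (-1.0, 0.62 and -3.49), a guanylate-binding protein induced by interferon. The reverse order was shown, besides Fthl17e and Rn28s1, by Eno1, a glycolytic enolase (1.06, -1.33 and 3.00), Gstp3 (-0.64, -2.48 and 1.04), Mettl1 (-2.67, -4.32 and -0.94) and Tpgs1 (-0.45, -2.10 and 1.66). Of these, Tpgs1 differed by 2.29 between the tumours, Cd163 by 1.11, and Vsig4 by 0.32. For the macrophage list the median difference of FCR_2xoff/on from FCR_off was -1.97, and that between the tumours was 0.18. For the cholesterol list these were 1.29 and -0.72. For all genes they were -0.15 and 0.06.

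**Figure D5:**
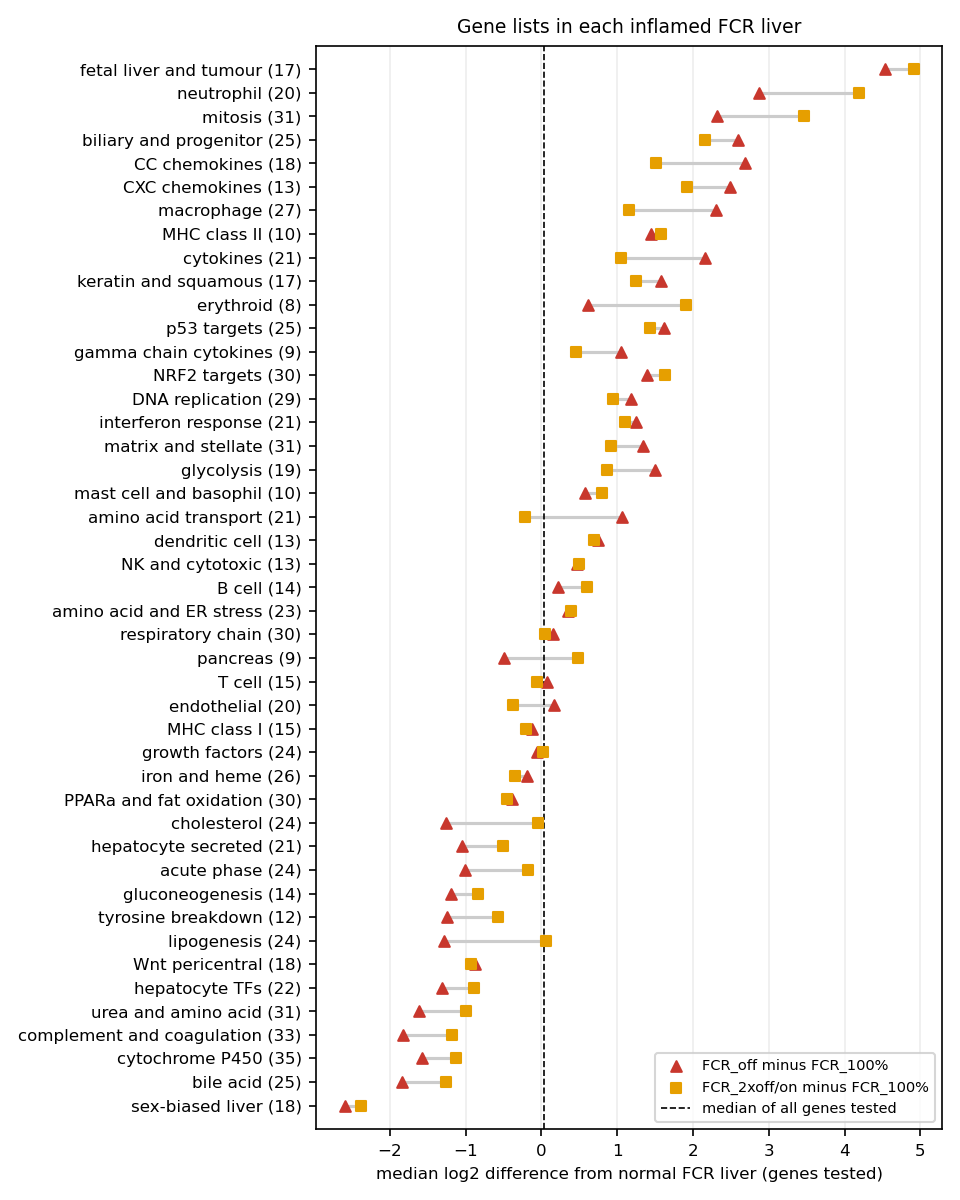
Median log2 difference from normal FCR liver of each of 45 gene lists in FCR_off (triangles) and in FCR_2xoff/on (squares), with the number of tested genes in brackets and the median of all tested genes as a dashed line. The fetal and neutrophil lists have the highest medians in both livers and the sex-biased list the lowest, and the lipogenesis, cholesterol and macrophage lists are among those where the livers are far apart.

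The same contrast in Fah mice, tumour against healthy liver, gave the nearest response to set beside this one. The difference of the 2 responses was tested in the same fit, and none of 15382 genes passed by limma (smallest adjusted p = 0.795; 175 higher and 157 lower at an unadjusted p under 0.05). Among the genes that the naming rule picked for a higher response in FCR liver, Lypd6b measured -7.07 in healthy Fah liver, -6.27 in Fah_off and -6.03 in Fah_2xoff/on, and Krt76 measured -7.37, -7.94 and -6.81. Both, like Wdr64, were not well above background in normal FCR liver or in any Fah sample. Ptgs2 measured -7.28, -8.31 and -5.26 in the Fah samples and was well above background there in Fah_2xoff/on alone.

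In the other direction, Cpa3, a mast cell protease, measured -7.62 in FCR_100%, -5.60 in FCR_off and -4.49 in FCR_2xoff/on, against -7.26 in healthy Fah liver and 0.63 and 2.72 in the tumours. It was not well above background in either control. Cd200r3, Slamf7 and Myom2 were also picked for a lower response in FCR liver. In Cd200r3, Slamf7 and Myom2 healthy Fah liver was not well above background while normal FCR liver was. None of these differences passed, and all involve levels not well above background, so that no size is given. Inflamed FCR liver and Fah tumour are different tissues by their labels, so that strain and lesion cannot be told apart.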

How the data were processed

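RNA of 6 mouse samples, 4 of liver and 2 of tumour, was measured on single-colour Agilent arrays, 1 per sample. Per the file headers the scans were read with Feature Extraction 10.7.3.1, while the submitters' processing notes name version 10.5. The deposited scanner files hold the intensity of each spot, with background removed by that software and no scaling across arrays. A series table deposited by the authors holds log2 values per probe; how it was equalised is unknown here, and it served only as an alternative.

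Control and outlier spots were left out, spots of a probe were averaged, and each array was centred on its 75th percentile of log2 processed signal. Probes were named by unversioned accession through a RefSeq table of GRCm38.p6: 26912 of 41145 were named, for 18342 genes, and 14233 were not. Of the 6535 genes with several probes, the probe with the highest mean was used. The number of arrays limits the precision.

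Testing took in genes that 2 or more arrays showed well above background. It was two-sided in limma 3.58.1 (R 4.3.3; lmFit, eBayes with trend) with 4 group means fitted to the 6 arrays together and 2 residual degrees of freedom, adjusted by Benjamini-Hochberg at 0.05. The lone normal array was assumed to vary like the pairs. The steps were tested on simulated data. Replicate numbers only follow sample order and coincide with regimen and slide.

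The samples compared, the 45 lists and the naming rules were chosen with earlier results of these data known. Named were the 12 largest called rises and falls with both inflamed livers on one side, the 8 largest each way within slide 1 and between the inflamed livers, 6 each way for opposite changes and for the difference from the Fah response, and members of the lists; families were added after their values were seen. Not all of them are printed, and some genes are not reported here. The alternatives tried are given with their effect in the closing section.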

Additional observations from a re-analysis of the deposited data

Results flagged for a closer look

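The Wnt and pericentral list had a median difference of -1.01 between inflamed and normal FCR liver and of 0.67 between Fah tumour and healthy Fah liver. It stands out because each inflamed FCR liver lay below its control (-0.87 and -0.93) and each tumour above; the difference was not tested. The respiratory chain list had medians of 0.083 and -0.60 in the same 2 comparisons, with every sample on its group's side of the control, and the difference was not tested. Its FCR median turned sign in 2 of the alternatives.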

How the results depend on the processing

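The count of 270 genes called between inflamed and normal FCR liver became 117 with quantile normalization, 159 with no filter on dim probes, 0 with a common floor, 54 with the authors' values, 1909 with slide as a block and 566 with the 3 FCR arrays only; the range was 458 to 1807 when an array of either pair was left out. All 117 genes called after quantile normalization, 53 of the 54 from the authors' values and 151 of the 159 without a filter were among the 270, and the block called all 270. Of the 401 genes called with normexp 192 were among them, so that 78 were not called. With the floor the prior degrees of freedom were 1.43, against 6.82. The count stayed within 1.5 times with array-median scaling (220), normexp (401), a stricter filter (278), the mean of a gene's probes (248) and no trend (229). Of 25 lists with a call, 14 held none with the authors' values and 6 none after quantile normalization or without a filter. The share of calls that were higher was 88.5%, and 69.3% with normexp (278 higher and 123 lower) and 70.9% with the slide block (1353 and 556). Array-median scaling moved the median of all genes to -0.22. Of 70 called genes that the text's rule names, 28 passed with the authors' values, 44 after quantile normalization and 60 with array-median scaling.

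The difference from the Fah response, with 0 genes called, gave 2 with normexp and 97 with slide as a block, and 0 to 16 when an array was left out. The block leaves 1 residual degree of freedom. No analysis paired by animal was possible, because the labels do not tie samples to animals and normal FCR liver is 1 array. FCR and Fah arrays match by regimen and slide. Apart from the slide block, no analysis paired that way was run. Median differences turned sign under some alternative in the B cell, dendritic, endothelial, growth factor, lipogenesis, mast cell, NK, pancreas, respiratory, amino acid transport, stress and T cell lists. With 1 normal liver and 2 inflamed ones of different regimen and slide, the data do not give the spread between normal livers, and genes near background carry bounds rather than folds.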
